A study of Homo sapiens with 3 samples.

Results

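The immediate early genes examined here are FOS, FOSB, FOSL1, FOSL2, JUN, JUNB, JUND, ATF3, EGR1 and IER2, which are 10 of the 27024 genes counted in 3 RNA-seq libraries of 22Rv1 WT cells. They were chosen by name, through their Ensembl identifiers, and not by their level, though earlier results of these data were known. All 10 had reads in each of the 3 libraries. The established line 22Rv1 comes from a human prostate carcinoma, and the WT cells have the intact enhancer on both copies with the non-risk G allele of the studied variant. They received no treatment in the labels and were grown in RPMI1640 medium with fetal bovine serum. The time since the last change of medium and the density at harvest are not given in the sources used here. In the study's methods the WT samples are control clones and in its results biological replicates. The SD below thus measures the spread between these libraries, which may be that between clones, cultures or preparations. The chi-square p-values below set the differences between libraries against counting error only. Enhancer KO and risk-allele cells were not analysed here, so the values describe 1 condition.

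Immediate early genes are transcribed within minutes of a stimulus such as serum, growth factors or stress, because the proteins needed to switch them on are already present in the cell. FOS, JUN and ATF proteins have a basic region and a leucine zipper (bZIP) and bind DNA as dimers called AP-1. JUN proteins can pair with each other or with FOS proteins, while FOS proteins need a partner. EGR1 is a zinc finger factor, and IER2 is a small nuclear protein of the same early response. Growth signals reach the promoters through mitogen-activated protein kinases (MAPK), which act on serum response factor (SRF) bound to CArG boxes and on CREB and ATF proteins bound to cAMP response elements. The mRNAs of many of these genes are short-lived.

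The promoters of the 10 genes are shown first, because serum and stress signals act on them. Within 500 bases upstream of the start of the canonical transcript (GRCh37, GENCODE), a CArG box, which is CC, then 6 bases of A or T, then GG, stood in 3 of the 10 promoters, against 2.39% of 20175 protein-coding promoters. These were FOS, FOSB and EGR1. The EGR1 window held 5 such boxes and was the 1 window of the 20175 with 5 or more. The core of the cAMP response element, TGACGT on either strand, stood in 8 of the 10, all but JUNB and IER2, against 11.9% of all promoters and 14.4% of those of expressed genes. It lay within 100 bases of the start in 6 of the 10, against 5.42% of all promoters and 6.69% of those of expressed genes. The AP-1 site TGANTCA was in 0 of the 10 windows, against 9.71% of all promoters and 7.44% of those of expressed genes. The EGR site GCGNGGGCG on either strand was in FOSB, JUND and EGR1. This is 3 of 10, against 15.2% of all promoters and 19.6% of those of expressed genes. A palindromic TGACGTCA was counted once on each strand. A match in these letters is a description of the sequence and binding was not measured.

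The CArG boxes are printed with their surroundings because FOS, FOSB and EGR1 are the members whose window matches the SRF motif. Capitals are CArG boxes and TGACGT, which reads ACGTCA on the other strand. All stretches run 5′ to 3′ on the strand of the gene, which is the plus strand here.
FOS, chr14:75745206-75745237: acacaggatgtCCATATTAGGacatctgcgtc
FOSB, chr19:45970919-45970998: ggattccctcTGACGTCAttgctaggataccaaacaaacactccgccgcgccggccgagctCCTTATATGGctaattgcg
EGR1, chr5:137800743-137800822: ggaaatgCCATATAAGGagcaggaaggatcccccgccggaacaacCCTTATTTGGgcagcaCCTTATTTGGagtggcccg
EGR1, chr5:137801028-137801112: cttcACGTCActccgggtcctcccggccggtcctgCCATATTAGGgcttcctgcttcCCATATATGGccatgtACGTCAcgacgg
The boxes of FOS and FOSB lay at bases -314 to -305 and -274 to -265 from the start, and the second EGR1 stretch holds its boxes nearest to the start, between a pair of TGACGT cores.

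The TGACGT core near the start is printed for the promoters besides EGR1 that had it within 100 bases, with capitals marking it. JUND is on the minus strand and the other genes are on the plus strand.
FOS, chr14:75745451-75745486: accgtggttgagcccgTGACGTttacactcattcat
FOSB, chr19:45971174-45971209: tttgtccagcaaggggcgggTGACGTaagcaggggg
FOSL2, chr2:28615645-28615680: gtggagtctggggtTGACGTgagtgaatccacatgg
ATF3, chr1:212781999-212782034: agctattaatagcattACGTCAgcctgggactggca
JUND, chr19:18392501-18392536: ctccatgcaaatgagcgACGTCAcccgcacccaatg
JUNB and IER2 had neither the CArG box nor the TGACGT core in the window, and FOSL1 and JUN had the core farther than 100 bases from the start. The canonical transcript of ATF3 starts well inside the annotated gene span, at 212782103 on chromosome 1. Those of FOSL2 and FOSL1 start inside the span but near its edge, at 28615725 on chromosome 2 and 65667859 on chromosome 11.

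The libraries held 38252744, 35675670 and 38629080 reads in replicates 1, 2 and 3. The deposited values are the authors' normalized counts, that is, reads divided by a size factor of 1.27, 1.18 and 1.27, and levels below are in this unit. To compare genes, the value was divided by the length of the canonical transcript in kilobases. A gene was called expressed at 1 CPM (reads scaled to library size) or more in all 3 libraries, which 12877 genes reached, 12205 of them protein-coding. Per kilobase, the expressed protein-coding genes had a median of 332 normalized counts, with quartiles of 116 and 809. The epithelial identity of the line was visible in its markers, with 7 of 7 luminal prostate markers expressed. Of 9 markers of blood, endothelial and fibroblast cells with a row, 1 was expressed, COL1A1, and CD3E was at 0 reads. Their summed normalized counts were 376, 295 and 361, against 101058, 101696 and 102232 for the luminal markers.

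Of the 10 genes, 9 were expressed, and FOSL1 was the exception. The levels per kilobase spread over 369-fold from IER2 to FOSL1, and 6 of the 10, IER2, the 3 JUN genes, ATF3 and EGR1, were above the median of expressed protein-coding genes. All 4 FOS genes were below the lower quartile. WT cells thus had more mRNA of each JUN gene than the median expressed gene, and little mRNA of the FOS genes. JUND, at 1358, and JUNB, at 859, were above the upper quartile of 809, and JUN, at 638, was below it.

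**Figure D1:**
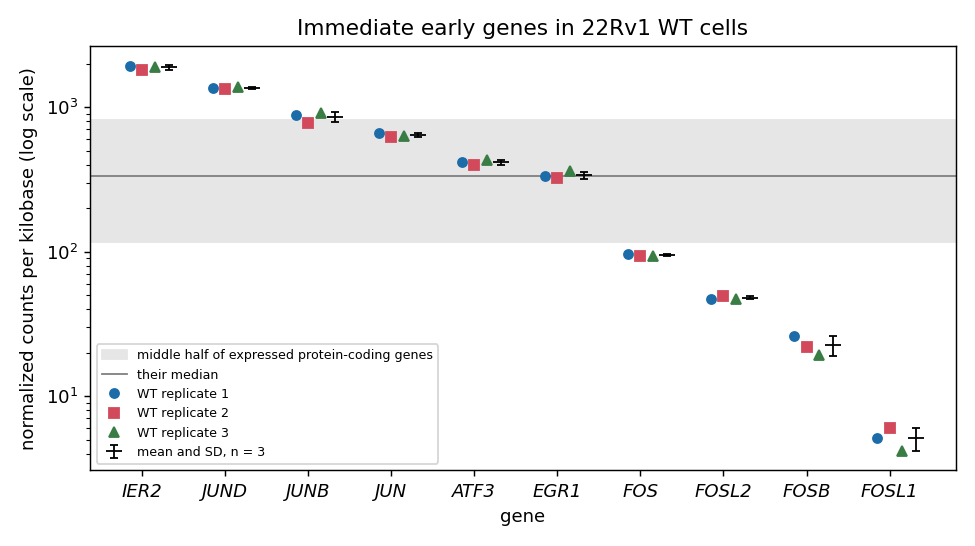
Level of the 10 genes in normalized counts per kilobase of canonical transcript (log scale), with a point for each of the 3 WT libraries and genes ordered by their mean. Black marks are the mean and SD (n = 3). The line is the median of expressed protein-coding genes and the grey band lies between their quartiles. IER2 is at the top at 1880 and FOSL1 at the bottom at 5.09, and the points of each gene lie apart from those of its neighbours.

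Among the JUN genes, JUND, the member that is less dependent on stimulation than the other two, lies on chromosome 19 from 18390504 to 18392432 on the minus strand (ENSG00000130522). Its normalized counts were 2628 in replicate 1, 2559 in replicate 2 and 2674 in replicate 3, or 1358 ± 29.9 per kilobase (SD, n = 3). This level was above that of 85.3% of expressed protein-coding genes. JUNB, which can act against JUN on some promoters, lies on the same chromosome from 12902300 to 12904129 on the plus strand (ENSG00000171223). It had 1624, 1431 and 1663 normalized counts in replicates 1, 2 and 3, or 859 ± 67.9 per kilobase. Replicate 2 was the low library, and the other two were close to each other. JUN, the founding member and a proto-oncogene, lies on chromosome 1 from 59242517 to 59249720 on the minus strand (ENSG00000177606). Its values were 2158, 2030 and 2048 normalized counts, or 638 ± 21.2 per kilobase, so that here replicate 1 was high and the others were alike. Per kilobase, JUND was 1.58-fold above JUNB and JUNB 1.35-fold above JUN.

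Among the FOS genes, FOS, the classical serum-induced member, lies on chromosome 14 from 75745529 to 75748933 on the plus strand (ENSG00000170345). It had 201.5, 196.3 and 196.0 normalized counts in replicates 1, 2 and 3, from 255, 232 and 249 reads. Per kilobase this was 94.1 ± 1.47, above 21.0% of expressed protein-coding genes. Its coefficient of variation (CV) over the libraries, 1.56%, was small beside the median of 8.52% of genes with 200 to 500 reads. Counting error alone usually gives a larger spread at this number of reads. The small CV and SD thus do not show that FOS is steadier than other genes. FOSL2, which encodes FRA2, lies on chromosome 2 from 28615315 to 28640184 on the plus strand (ENSG00000075426). It had 317, 331 and 317 normalized counts, or 47.9 ± 1.23 per kilobase, with replicate 2 slightly above the others. FOSB, whose stable splice form accumulates in neurons, lies on chromosome 19 from 45971253 to 45978437 on the plus strand (ENSG00000125740). Its 98.8, 82.1 and 73.2 normalized counts gave 22.4 ± 3.44 per kilobase and a CV of 15.3%, near the median of 15.1% of genes with 50 to 200 reads. FOSL1, which encodes FRA1, lies on chromosome 11 from 65659520 to 65668044 on the minus strand (ENSG00000175592). It had 11, 12 and 9 reads, or 8.7, 10.2 and 7.1 normalized counts, a level of 5.09 ± 0.911 per kilobase. With so few reads, a floor of 3 reads leaves room to measure a fall of at most 1.83 on the log2 scale for FOSL1, against 6.35 for FOS and 10.68 for IER2. The floor covers counting error only.

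IER2 was the highest of the 10 per kilobase. It lies on chromosome 19 from 13261225 to 13265725 on the plus strand (ENSG00000160888), 357 kb from JUNB. Its values were 4073, 3800 and 4026 normalized counts, or 1880 ± 69.2 per kilobase, above 89.6% of expressed protein-coding genes. As with JUNB, replicate 2 was the low library. ATF3, a stress-induced bZIP factor that can pair with JUN proteins, lies on chromosome 1 from 212738676 to 212794119 on the plus strand (ENSG00000162772). It had 809, 776 and 837 normalized counts, or 416 ± 15.7 per kilobase. EGR1 lies on chromosome 5 from 137801168 to 137804992 on the plus strand (ENSG00000120738). Its 1042, 1017 and 1127 normalized counts gave 339 ± 18.3 per kilobase, next to the median of expressed protein-coding genes at a percentile of 50.7.

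The order per kilobase was IER2, JUND, JUNB, JUN, ATF3, EGR1, FOS, FOSL2, FOSB and FOSL1. In each of the 9 neighbouring pairs, the 3 values of the higher gene lay above the 3 values of the lower gene. The pairs were formed by sorting on these same values, and the share of such pairs over all genes was not computed. Both genes of a pair were measured in the same 3 libraries, where an exact paired permutation test (two-sided) cannot go below p = 0.25, so no p is given for a pair. The widest steps were the 4.41-fold one from FOSB to FOSL1 and the 3.60-fold one from EGR1 to FOS. The narrowest was the 1.23-fold step from ATF3 to EGR1. The order depends on transcript length. With the longest transcript of each gene JUND stood above IER2, and the values lay apart in 8 of the 9 pairs. With all exons EGR1 also stood above ATF3.

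Of the summed JUN mRNA per kilobase, JUND made up 47.6% ± 0.905 (SD, n = 3), JUNB 30.1% ± 1.28 and JUN 22.4% ± 0.737. Of the summed FOS mRNA, FOS made up 55.5% ± 1.15, FOSL2 28.3% ± 1.03, FOSB 13.2% ± 1.64 and FOSL1 3.00% ± 0.490. The sums were 2856 ± 107 for the 3 JUN genes and 169 ± 5.24 for the 4 FOS genes. The JUN to FOS ratio was 16.7 in replicate 1, 16.0 in replicate 2 and 17.8 in replicate 3, a mean of 16.9 ± 0.910. In normalized counts that were not divided by length the ratio was 10.2, and the order changed within both families, with 52.5% for FOSL2 and 32.3% for FOS among the FOS genes, and 33.2% for JUN and 25.1% for JUNB among the JUN genes. The ratio is of mRNA, and neither protein nor dimers were measured.

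Whether a gene differed between the WT libraries was tested with a chi-square test of homogeneity on its 3 read counts, with Benjamini-Hochberg adjustment over the 14646 genes that averaged 10 reads or more. This test covers counting error only, takes reads as independent molecules, and holds no term for the spread between samples. Beyond counting error, 2 of the 10 genes differed, JUNB with an adjusted p of 1.05e-04 and IER2 with an adjusted p of 0.00782, where the background was 41.9% of all genes tested. The highest library was 1.16-fold above the lowest for JUNB and 1.07-fold for IER2. EGR1 and JUN had adjusted p-values of 0.0653 and 0.0994, and the other 6 ranged from 0.139 for FOSB to 0.949 for FOS. The calls on JUNB and IER2 rested on replicate 2. Without it 0 of the 10 genes and 22.7% of all genes differed, and the adjusted p was 0.658 for JUNB and 0.681 for IER2 by the same chi-square test. Without replicate 1 EGR1 differed as well, with an adjusted p of 0.0462, making 3 genes, where 27.0% of all genes differed. A further test added to the sampling noise the spread that edgeR estimated from these same 3 libraries for genes of a like level. With it 0 of the 10 and 0.348% of all genes differed. Because its noise term holds the spread being tested, few calls are built in, and it is no independent check. In that test 0 of the 10 genes and 4.84% of all genes had an unadjusted p under 0.05, against 4 of the 10 and 50.2% of all genes in the chi-square test. After adjustment by edgeR's trended dispersion model all 10 were at 1.00.

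Set beside genes with a like number of reads, 6 of the 10 genes had a CV below the median. JUNB, at 7.90%, was above the median of 4.14% of genes with 1000 to 3000 reads. JUN at 3.33%, JUND at 2.20% and ATF3 at 3.78% were closer between libraries, while EGR1, at 5.40%, and IER2, at 3.68% where its range of reads had a median of 3.07%, were above. The fold between the highest and the lowest library was under 1.2 for 8 of the 10 genes, and FOSB and FOSL1, those with the fewest reads, were the exceptions. The share of all genes under this limit was not computed, so the count is not a trait of these genes.

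By library, 6 of the 10 genes were lowest in replicate 2, 4 in replicate 3 and 0 in replicate 1. The background was 35.5%, 33.3% and 31.3% of all genes tested. Those lowest in replicate 2 were the 3 JUN genes, ATF3, EGR1 and IER2, and the 4 FOS genes were lowest in replicate 3. Some of these places were near ties. FOS had 196.3 and 196.0 normalized counts in replicates 2 and 3, and FOSL2 had 316.8 and 316.5 in replicates 1 and 3. JUN had 2030 and 2048 in replicates 2 and 3. The highest value was in replicate 1 for 4 genes, in replicate 2 for 2 and in replicate 3 for 4, against 32.6%, 33.5% and 33.9% of all genes. For JUNB the differences from the gene's own mean were 0.05, -0.13 and 0.08 on the log2 scale in replicates 1, 2 and 3. For EGR1 they were -0.02, -0.06 and 0.08, and for FOSB 0.23, -0.03 and -0.20. The median over the 10 genes in replicate 2 was -0.03, where the median over all genes was -0.00. The 10 transcripts are rich in G and C (a median of 56.9% against 48.7% of all genes tested) and short (2107 against 3229 bases). After removing a trend over GC content and length from each library, 4 of the 10 were lowest in replicate 2, against 35.6% of all genes, and the median difference was -0.02. JUN was then lowest in replicate 3, and JUND and FOSL2 in replicate 1. The part of GC content, length and replicate 2 in the calls on JUNB and IER2 was not tested further.

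**Figure D2:**
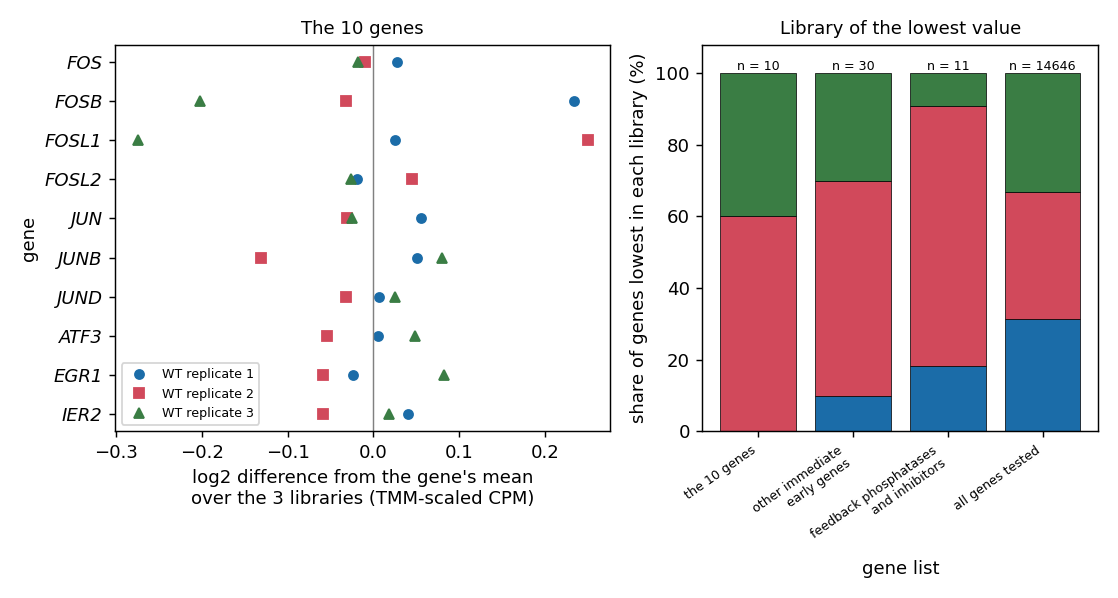
Left, log2 difference of each of the 10 genes from its mean over the 3 libraries (TMM-scaled CPM), with a point per WT replicate. Right, the share of genes (%) whose lowest value is in replicate 1, 2 or 3, for the 10 genes, other immediate early genes, feedback inhibitors and all genes tested, in the colours of the left panel. JUNB is lowest in replicate 2, at -0.13, and FOSB in replicate 3, at -0.20, and replicate 2 is the lowest library for 6 of the 10 genes against 35.5% of all genes.

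The 10 genes share a compact structure. All 10 have 4 exons or fewer in the canonical transcript, against 20.0% of expressed protein-coding genes, whose median is 9. The 3 JUN genes have 1 exon, which 1.86% of expressed genes share, EGR1 and IER2 have 2, and the FOS genes and ATF3 have 4. The gene spans 10 kb or less in 8 of the 10, against 18.3%, and FOSL2 and ATF3 are the longer ones. FOSB, JUNB, JUND and IER2, 4 of the 10, lie on chromosome 19. In the 3′ UTR, the AU-rich pentamer ATTTA, a mark of unstable mRNAs, was present in 9 of the 10 genes, against 75.5% of expressed protein-coding genes with a 3′ UTR of at least 100 bases. FOS had 5 copies in 809 bases, or 6.18 per kilobase, where the median was 1.80. JUNB (3.98 per kilobase), ATF3 (2.45) and JUN (2.33) were also above the median, and FOSL2 (1.85) was next to it. FOSB (1.38), JUND (1.33), FOSL1 (1.19) and EGR1 (0.816) were below it, and IER2 had 0 copies. The genes thus lay on both sides of the median. The longer element TTATTTATT was in FOS and FOSL2, against 10.0% of genes. Stability itself was not measured.

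No member had a near-identical copy (98% identity over 50% of the transcript) among the canonical transcripts of other annotated genes. The genome itself was not searched. JUNB lies inside HOOK2 on the opposite strand, and 14.2% of its transcript is also HOOK2 exon. For IER2, 44.8% of the transcript overlaps exons of a lncRNA on the opposite strand (ENSG00000267598), which had no row. Strand use in the counting is not given in the sources used here, so these reads cannot be assigned between the genes. FOSB lies within ERCC1, on the opposite strand, and shares no exon base with it.

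Of 13 further bZIP genes of the AP-1 network (BATF, MAF, JDP2, ATF2 and ATF7 among them), 9 were expressed, with a median of 45.5 normalized counts per kilobase. The small MAF genes MAFK, at 600 ± 31.4 per kilobase, and MAFG, at 509 ± 26.4, led the list and were below JUN, the lowest of the 3 JUN genes on this scale. ATF7, a JUN partner that JNK phosphorylates, was at 260 ± 11.1 and ATF2 at 174 ± 9.43. BATF, the AP-1 factor of lymphocytes, was at 0 reads in all 3 libraries. Between the WT libraries, 5 of the 10 tested differed in the chi-square test, near the 41.9% of all genes. All 12 of the CREB and ATF genes were expressed, with a median of 459 per kilobase. ATF4, the factor of the integrated stress response, was by far the highest of them at 12647 ± 39.1, followed by CREB3L4 at 1672 ± 45.3. In this list 2 of 12 differed between libraries, against 41.9% of all genes.

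EGR1 was the highest of the EGR genes. EGR3, which was also expressed, had 11.2 ± 2.86 normalized counts per kilobase, 30.3-fold below EGR1. EGR2 had 14, 16 and 7 reads and EGR4 had 10, 0 and 3 reads, and neither was expressed. The NAB corepressors, which bind EGR proteins and dampen their activity, were both expressed, NAB2 at 540 ± 22.7 and NAB1 at 267 ± 14.1 per kilobase. Of the 4 genes tested in this list 2 differed between libraries, EGR3 and NAB1, near the 41.9% of all genes.

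Among 31 other immediate early genes, 28 were expressed, with a median of 247 per kilobase. The survival factor MCL1 led at 3132 ± 60.3, followed by RHOB, a small GTPase, at 1352 ± 59.9 and by ZFP36L1, which binds AU-rich mRNAs, at 919 ± 21.4. The orphan nuclear receptor NR4A1 was at 247 ± 10.3, NR4A2 at 13.5 ± 1.54, and NR4A3 was not expressed. SGK1 and the neuronal factor NPAS4 were not expressed either. The phosphatase DUSP1, which switches MAPK off, was at 208 ± 10.5 and ZFP36 at 369 ± 26.2. Of the 30 tested, 10 differed between libraries, or 33.3% against 41.9% of all genes, CSRNP1 and BTG2 among them. In replicate 2, 18 were lowest, where the share of all genes was 35.5%, and 14 after the trend over GC content and length was removed, where it was 35.6%. CSRNP1 had 1303, 1153 and 1431 normalized counts and BTG2 had 820, 812 and 1001.

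The genes that carry growth signals to these promoters were expressed with few exceptions. SRF was at 653 ± 32.4 per kilobase, its ETS cofactors ELK1 at 711 ± 19.6 and ELK4 at 396 ± 27.9, and all 6 of the list were expressed. Of 17 kinases of the MAPK pathways 16 were expressed, with a median of 581, and MAPK10, the neuronal JNK, was the exception. MAP2K2, a kinase that activates ERK, was the highest of them, at 1797 ± 78.3. In the chi-square test 3 of the 6 SRF genes and 5 of the 16 kinases tested differed between libraries, against 41.9% of all genes. All 11 feedback phosphatases and inhibitors were expressed, with SPRY4 highest at 463 ± 2.50, DUSP9 at 356 ± 4.63 and SPRED2 at 350 ± 11.2, and 5 of them differed, near the same share.

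Textbook AP-1 targets were mostly low. Of 18 with a row, 6 were expressed, and the median was 2.87 per kilobase. Cyclin D1 (CCND1), at 25403 ± 160, was far above the rest, followed by CD44 at 341 ± 18.2 and HMOX1 at 119 ± 5.82. The stromelysin MMP3, the collagenase MMP13, the cytokine IL6 and the keratinocyte gene IVL were at 0 reads, and PLAU had a single read. Of the 7 targets tested 3 differed between libraries, near the 41.9% of all genes. With edgeR's trended dispersion, estimated from the same 3 libraries, 0 genes differed in each of the lists above. Few calls are built into that test.

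The genes whose level was most like that of FOS over the 3 libraries were ABCC2, RSBN1 and PUS10, at distances of 0.03, 0.04 and 0.04 in log2(normalized counts per kilobase + 1). Those most like JUN were ATXN7L3, FZD6 and RDH13, at 0.02, 0.02 and 0.03. The distance is over 3 libraries of 1 condition and reflects a like level.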

How the data were processed

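The 3 WT libraries of 22Rv1 cells were used. Mapping to GRCh37 by the authors was with HISAT2 and counting with HTSeq. The deposited values are the signal per gene after normalization in DESeq2, rounded to 1 decimal. Whole reads were recovered from the step of each library, with 100% of the values above 0 whole within rounding. Neighbouring rows with the same reads in all libraries were merged, which removed 1976 of 29000 rows. The GENCODE release and the strand setting of the counting are not given in the sources used here. Library sizes were scaled by TMM (edgeR 4.0.16, R 4.3.3). Tests between libraries were chi-square tests of homogeneity with Benjamini-Hochberg adjustment at a threshold of 0.05, for genes averaging 10 reads or more (scipy 1.17.1). The test was checked on counts simulated with counting error only, so the check does not cover further spread between libraries. Alternatives were other scalings including DESeq2 1.42.0, other minimum counts, edgeR's trended dispersion, other transcript lengths, other pseudocounts, unmerged rows and leaving out each replicate. Lengths, positions and sequences came from GENCODE 44 lifted to GRCh37, and copies were sought with minimap2 2.31. Removing a trend over GC content and length, and the library of the lowest value, were chosen after seeing the data. The genes and the lists were chosen with earlier results of these data known. Named genes are the 10 members, the 3 highest of each list per kilobase, and the genes most like FOS and JUN. Not every gene that the rule names is reported here. Further genes, such as EGR2, NR4A1, DUSP1, CSRNP1, BATF and the AP-1 targets at 0 reads, were named after their values were seen.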

Additional observations from a re-analysis of the deposited data

How the results depend on the processing

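No paired analysis was possible because the 3 libraries form 1 group. The levels of the 10 genes moved by at most 0.240% under the other scalings. Leaving out 1 of 3 replicates cannot move a mean by 1 SD, so those values do not test the levels. The number of the 10 genes that differed between WT libraries was 2 under the other scalings, minimum counts and unmerged rows. These were the same genes, JUNB and IER2. It was 0 with edgeR's trended dispersion added, where 51 of all genes differed instead of 6141. That dispersion was estimated from the same 3 libraries, so few calls are built in. Leaving out a replicate gave 0 to 3 of the 10 genes and 3332 to 3950 of all genes, with 0 of the 10 without replicate 2, and 2 libraries allow fewer calls than 3. With the length of all exons in place of the canonical transcript, the shares became 20.6% for JUN and 48.7% for JUND, and 49.0% for FOS, 35.4% for FOSL2 and 3.61% for FOSL1, and the JUN to FOS ratio became 22.0. The adjusted p over all alternatives ranged from 9.57e-05 to 1.00 for JUNB and from 0.00596 to 1.00 for IER2 in the chi-square and edgeR tests. Counts of expressed genes in each list stayed within 1.5 times at limits of 0.1 and 5 CPM. The depth limits FOSL1, EGR2 and EGR4, where a few reads set the value.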

Other observations

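Among the feedback inhibitors of MAPK signalling, 8 of 11 were lowest in replicate 2, and 7 of 11 after the trend over GC content and length was removed, where the share over all genes was 35.5% and 35.6%. Their median difference in replicate 2 was -0.09 on the log2 scale both with and without the trend. DUSP6, which encodes an ERK phosphatase, had 507 normalized counts in replicate 1, 374 in replicate 2 and 483 in replicate 3, with an adjusted p of 2.27e-05 in the chi-square test and 1.00 with edgeR's trended dispersion. SPRED1 had 1494, 1318 and 1419 normalized counts and DUSP7 had 1162, 1074 and 1250. DUSP10 went the other way, with 243, 257 and 200 normalized counts and a difference of 0.15 on the log2 scale in replicate 2 (adjusted p of 0.0216 in the chi-square test), and SPRY4 had 2256, 2279 and 2276. The list was described after its values were seen, and what these libraries share was not tested.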
